A study of Mus musculus with 8 samples.

Results

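Matrix crosslinking and matricellular genes were taken as 10 genes listed by symbol, each of which matched 1 of the 27775 gene rows of both count tables. They are Lox, Loxl1, Loxl2, Plod2, Tgm2, Tnc, Sparc, Thbs1, Bgn and Postn. Their levels were read in carcinoma cells, fibroblasts, mesothelial cells and macrophages of 2 pancreatic ductal adenocarcinomas of KPC mice, 1 of medium size and 1 of large size, here the medium and the large tumor. In KPC mice tumors arise from mutant alleles that are switched on by Pdx-1-Cre, a Cre driven by a pancreatic promoter, and the mice of both tumors were untreated. No tumor-free pancreas and no mouse without these alleles was analysed, and the ages of the mice are not given in the sources used here. Cells of the dissociated tumors went through the 10x 3′ v2 chemistry, which counts unique molecular identifiers (UMIs), each standing for 1 captured mRNA molecule.

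The extracellular matrix of a pancreatic tumor is made mostly by fibroblasts, and it is stiffened by enzymes that join collagen and other matrix proteins to each other. Lysyl oxidases oxidise lysines of collagen and elastin, a lysyl hydroxylase prepares collagen lysines inside the cell for such links, and a transglutaminase joins glutamine to lysine. Matricellular proteins are secreted into the matrix but mainly tune how cells attach and signal, rather than bearing load.

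The table of the medium tumor held 2812 cells with a median of 5456.5 UMIs per cell, and that of the large tumor held 1533 cells with a median of 1037. The labels list 4 technical replicates for each tumor, which are pooled in 1 table, so there was 1 sample of each size, no replicate error and no test. A level is given as CPM, the UMIs of a gene among 1000000 UMIs of a group of cells, with an exact 95% Poisson interval. A ratio carries an exact 95% interval from its 2 counts. All intervals cover counting error only. A gene was called different between groups when the ratio was at least 4 with 10 CPM added to both groups and the higher group had at least 10 UMIs. The same rule was applied to every gene with at least 10 UMIs, and the share of genes it called is given as the background beside each count of members.

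Cells were clustered with the 10 members removed from the table, and clusters were named from markers that include no member. The medium tumor gave 8 clusters with epithelial markers, here called carcinoma clusters, with 2331 cells in all. It also gave 239 macrophage-like cells in 2 clusters, 80 mesothelial-like cells, 61 fibroblast-like cells and 38 endothelial-like cells. The large tumor gave 684 carcinoma cells in 5 clusters, 253 macrophage-like, 50 fibroblast-like and 11 endothelial-like cells, 205 enterocyte-like and 54 goblet-like cells, and no mesothelial-like cluster. The labels were checked against these markers. The 61 fibroblast-like cells had 9 of 12 fibroblast markers and 3 of 7 pericyte and smooth muscle markers, the 50 of the large tumor had 7 of 12 and 1 of 7, and the 80 mesothelial-like cells had 8 of 8 mesothelial markers and 6 of 12 fibroblast markers, so neither class is free of the other stromal genes. No mutation was read from these counts, and carcinoma cells and other duct cells with the same markers cannot be told apart. Cluster 2 of the medium tumor, with 295 cells, had 12 of 13 epithelial and 3 of 8 goblet markers, and so did cluster 7. The goblet marker Tff3 was among the 10 leading genes of cluster 2. Of the 8 carcinoma clusters of this tumor, only cluster 6 had a listed epithelial marker, Cldn4, among its 10 leading genes. Cluster 8, with 223 cells, had only 3 of 13 epithelial markers. A cluster of 63 cells in the medium tumor, with 12 of 13 epithelial and 9 of 12 macrophage markers, and a cluster of 276 cells in the large tumor, with 2 of 13 epithelial markers, stayed unnamed. The tables share 5 cell barcodes.

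All 10 members passed the minimum of 10 UMIs in both tumors. In the medium tumor 9 of the 10 members were at least 4-fold higher in fibroblast-like than in carcinoma cells, against a background of 2.74% of 13747 genes, and only Tgm2 was not. In the opposite direction 0 members were called, against 1.54% of genes. The median log2 ratio of the members, with 10 CPM added, was 5.24, against -0.10 over all genes tested. In the large tumor 7 of the 10 were called in the same direction, against a background of 1.5% of 9506 genes, and the median log2 ratio was 4.53 against -0.27. The 3 members not called there were Plod2, with 8 UMIs in fibroblast-like cells, Tgm2 and Thbs1. In that tumor 0 members were called higher in carcinoma cells, against 4.37% of genes. When its cells were thinned to 500 UMIs each, Lox, Sparc and Bgn kept their call, Loxl1, Loxl2, Tnc and Postn lost it, and Tgm2, whose 4 UMIs in fibroblast-like cells fell to 0, passed the rule as lower there. The plot of CPM by class shows these levels, and the map over clusters shows that the fibroblast-like cluster had the highest level of all clusters for Lox, Loxl1, Loxl2, Plod2, Tnc, Sparc, Bgn and Postn in both tumors.

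**Figure D1:**
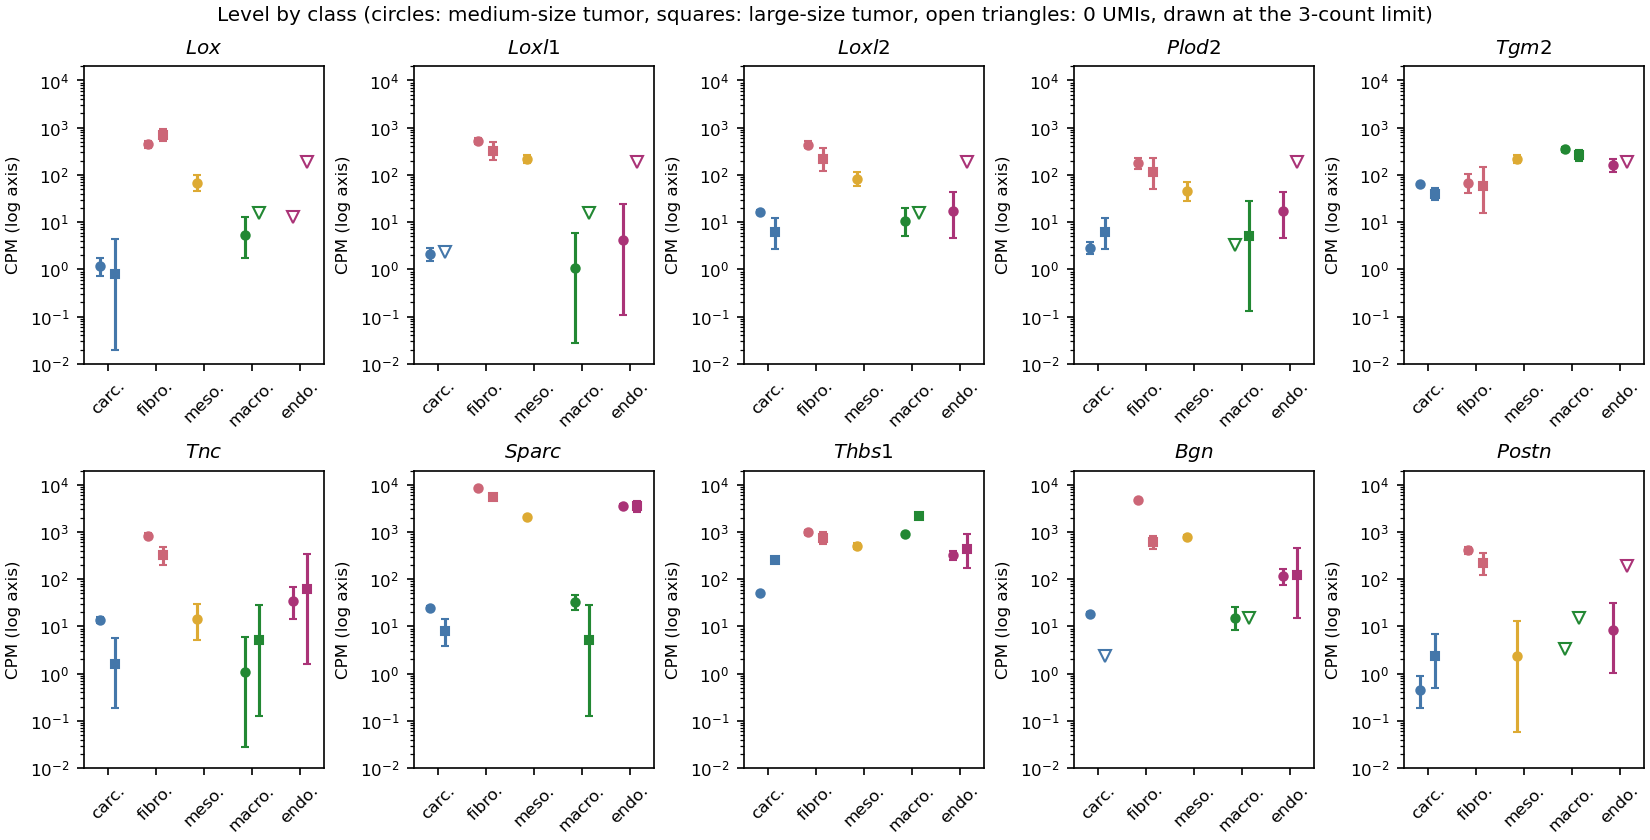
Each panel plots 1 gene, with the class of cells on the x axis and CPM on a log y axis; circles are the medium tumor, squares the large tumor, vertical lines exact 95% Poisson intervals, and open triangles mark 0 UMIs at the limit that 3 counts allow. Fibroblast-like cells lie far above carcinoma cells for every gene except Tgm2 in both tumors and Thbs1 in the large tumor, where the ratio was 3.00.

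**Figure D2:**
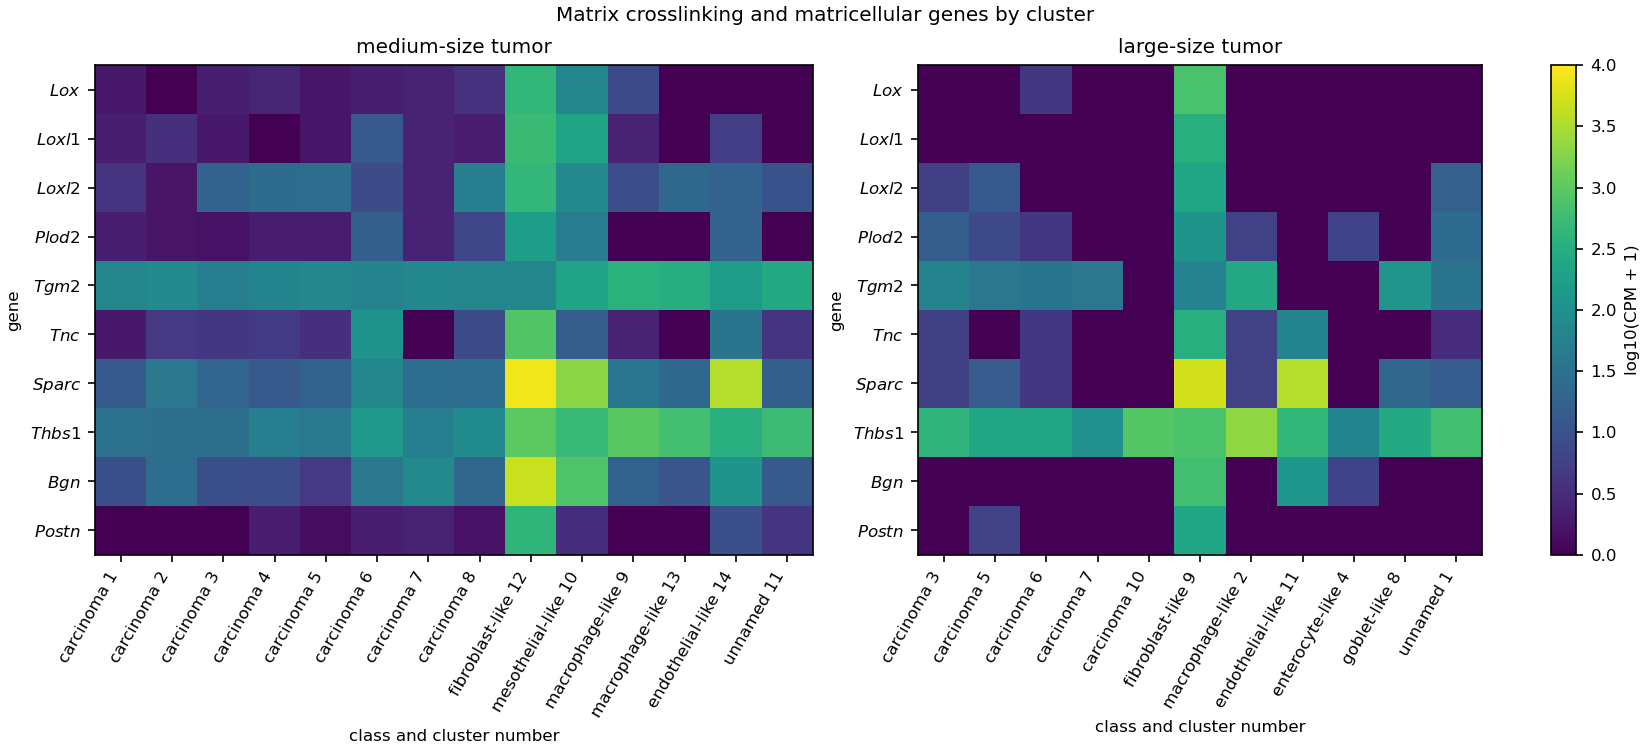
Colour gives log10(CPM + 1) of each gene (rows) in each cluster (columns, with class and cluster number) of the medium tumor on the left and the large tumor on the right. The fibroblast-like column is the brightest for 8 of the 10 genes in both tumors, while Tgm2, highest in macrophage-like clusters of both tumors, and Thbs1, highest in fibroblast-like and macrophage-like clusters of the medium tumor, have UMIs in every carcinoma cluster of the medium tumor.

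The regulatory sequence of members that moved together is shown for those with an entry in the RefSeq promoter table of GRCm38.p6, which held 4 of the 10 members, Tnc, Sparc, Bgn and Postn, in 6 entries. Lox, Loxl1, Loxl2, Plod2, Tgm2 and Thbs1 had no entry. The 7 letters TATATAA, a form of the TATA box, were searched on both strands of the 250 bases before each start, and the motif was chosen after these sequences had been seen. It was found in 1 of the 2 entries of Postn, with its first base 28 bases before the start, and in 1 of the 2 entries of Tnc, 29 bases before the start, but not in the entries of Bgn or Sparc. Of 32851 promoters in the table, 3.04% held it. The letters TGANTCA, the core of an AP-1 site, and GGAATG, the core of a TEAD site, were in none of the 6 entries, against 6.75% and 12.6% of all promoters, and the letters were not looked for outside these windows. Capitals mark TATATAA in the sequences, which run 5′ to 3′ on the strand of the gene. The Postn sequence covers the 250 bases before the start (chr3:54360857-54361106, plus strand), the Tnc sequence 30 bases around the motif (chr4:64046947-64046976, minus strand), since a longer annotated Tnc transcript begins upstream of it, and the Bgn sequence the 250 bases before the start (chrX:73483351-73483600, plus strand). The Postn and Tnc sequences are shown because these genes had their motif at nearly the same distance from the start, and Bgn for contrast.
Postn: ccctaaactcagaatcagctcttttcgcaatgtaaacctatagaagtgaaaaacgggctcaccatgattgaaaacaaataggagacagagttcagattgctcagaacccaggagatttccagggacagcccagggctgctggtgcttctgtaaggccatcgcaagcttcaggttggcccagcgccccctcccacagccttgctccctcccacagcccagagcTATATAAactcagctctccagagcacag
Tnc: aaggagctcccTATATAAgcctgccaaagc
Bgn: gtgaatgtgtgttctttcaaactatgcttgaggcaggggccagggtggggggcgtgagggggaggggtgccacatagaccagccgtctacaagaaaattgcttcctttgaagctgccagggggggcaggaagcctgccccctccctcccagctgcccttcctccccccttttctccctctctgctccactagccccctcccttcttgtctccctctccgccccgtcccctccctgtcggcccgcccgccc

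Lox, the lysyl oxidase that gives the family its name, was measured at 444 CPM (95% interval 371 to 526) in fibroblast-like cells of the medium tumor and at 704 CPM (519 to 934) in those of the large tumor. In carcinoma cells it was at 1.16 CPM (0.718 to 1.77) and 0.788 CPM (0.0199 to 4.39), the latter from 1 UMI. The ratio of fibroblast-like to carcinoma cells was 382 (240 to 638) in the medium tumor, and in the large tumor it was 894 with a counting interval of 153 to 36049. Lox, on chromosome 18 (chr18:52516067-52529867, GRCm38, minus strand), where 1 gene on the other strand overlaps its exons, thus had most of its UMIs in fibroblast-like cells, of which the 61 cells held 70.4% (63.3% to 76.9%) in the medium tumor and 50 cells held 98.0% (89.1% to 99.9%) in the large tumor. Mesothelial-like cells were the next highest class at 67.7 CPM (45.4 to 97.3). Within the fibroblast-like cells of the medium tumor, 43 of 61 cells had a Lox UMI, and the 10 cells with the most held 50% or more of the UMIs.

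Loxl1, a lysyl oxidase that acts on elastin, was at 528 CPM (449 to 618) in fibroblast-like and 217 CPM (175 to 266) in mesothelial-like cells of the medium tumor, and at 2.10 CPM (1.49 to 2.88) in carcinoma cells. The ratio of fibroblast-like to mesothelial-like cells was 2.43 (1.87 to 3.18), below the 4-fold rule. All 22 Loxl1 UMIs of the large tumor were in its 50 fibroblast-like cells, at 323 CPM (202 to 489). Against the 3 counts that a count of 0 in carcinoma cells allows, this was at least 137-fold higher, and with the counting error of both classes the interval of the ratio begins at 102. Loxl1 lies on chromosome 9 (chr9:58287738-58313186, minus strand).

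Loxl2, a lysyl oxidase that acts on collagen IV among other substrates, was the lysyl oxidase with the smallest ratio between fibroblast-like and carcinoma cells. It was at 440 CPM (368 to 523) in fibroblast-like cells and 16.5 CPM (14.7 to 18.4) in carcinoma cells of the medium tumor, a ratio of 26.7 (21.6 to 33.0). The levels in the large tumor were 220 CPM (123 to 363) and 6.30 CPM (2.72 to 12.4), and the ratio was 34.9 (13.9 to 95.1). Since carcinoma cells made up most of the medium tumor, they held 62.1% (57.6% to 66.4%) of its Loxl2 UMIs against 27.1% (23.2% to 31.3%) in fibroblast-like cells. Loxl2 is on chromosome 14 (chr14:69609068-69695834, plus strand), where its exons overlap those of Mir6950 on the same strand and Gm27177 on the other.

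Plod2, the lysyl hydroxylase of collagen telopeptides, had few UMIs. It was at 176 CPM (132 to 231) in fibroblast-like, 46.7 CPM (28.5 to 72.1) in mesothelial-like and 2.87 CPM (2.15 to 3.77) in carcinoma cells of the medium tumor. The ratio of fibroblast-like to carcinoma cells was 61.3 (40.9 to 91.8) there and 18.6 (6.10 to 56.9) in the large tumor, from 8 UMIs in each class. None of the 239 macrophage-like cells of the medium tumor had a Plod2 UMI, which allows a level of up to 3.25 CPM. Plod2 is on chromosome 9 (chr9:92542223-92608428, plus strand), with exons that overlap those of Gm38391 on the other strand.

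Tgm2, tissue transglutaminase, which is also made by macrophages and endothelium, had another order of classes. In the medium tumor it was at 346 CPM (310 to 387) in macrophage-like, 220 CPM (177 to 269) in mesothelial-like, 162 CPM (114 to 222) in endothelial-like, 67.7 CPM (41.4 to 105) in fibroblast-like and 64.2 CPM (60.6 to 68.0) in carcinoma cells. The intervals of the last 2 classes overlap, with a ratio of 1.05 (0.642 to 1.64), and so do those of mesothelial-like and endothelial-like cells. Macrophage-like cells of the large tumor were again highest at 260 CPM (194 to 342), against 58.7 CPM (16.0 to 150) in fibroblast-like and 40.2 CPM (29.9 to 52.8) in carcinoma cells. Tgm2 is on chromosome 2 (chr2:158116402-158146436, minus strand), with exons that overlap those of Gm20412 and Rprd1b on the other strand.

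Tnc, tenascin-C, a large matricellular glycoprotein of remodelled and tumor stroma, was at 830 CPM (729 to 940) in fibroblast-like cells and 13.7 CPM (12.1 to 15.5) in carcinoma cells of the medium tumor, a ratio of 60.5 (50.5 to 72.5). Mesothelial-like cells, at 14 CPM (5.14 to 30.5) from 6 UMIs in 2 of 80 cells, did not differ from pooled carcinoma cells beyond counting error, with a ratio of 1.02 (0.372 to 2.26). This ratio was 0 at a resolution of 1.2 and with members kept in the clustering, 0.351 after thinning and 0.970 without cluster 8. The pooled carcinoma level rests largely on cluster 6, described further on, without which it was 2.94 CPM. The UMIs of Tnc were divided almost evenly, with 48.7% (44.3% to 53.2%) in carcinoma and 48.1% (43.7% to 52.6%) in fibroblast-like cells. Fibroblast-like cells of the large tumor had Tnc at 323 CPM (202 to 489) and its carcinoma cells at 1.58 CPM (0.191 to 5.69). Tnc is on chromosome 4 (chr4:63959785-64047015, minus strand), with exons that overlap those of 8030451A03Rik on the other strand.

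Sparc, a collagen-binding glycoprotein also called osteonectin, was at 8331 CPM (8005 to 8667) in fibroblast-like, 3597 CPM (3359 to 3848) in endothelial-like and 2036 CPM (1903 to 2176) in mesothelial-like cells of the medium tumor. It was at 24.3 CPM (22.0 to 26.6) in carcinoma and 32.5 CPM (21.9 to 46.4) in macrophage-like cells, whose intervals overlap. The classes that both tumors share and that had a high level kept their order in the large tumor, at 5385 CPM (4848 to 5966) in fibroblast-like, 3567 CPM (2702 to 4622) in endothelial-like cells. Carcinoma cells were at 7.88 CPM (3.78 to 14.5) and macrophage-like cells at 5.1 CPM, from 1 UMI. Every one of the 61 fibroblast-like cells of the medium tumor and 49 of 50 of those of the large tumor had a Sparc UMI. Sparc is on chromosome 11 (chr11:55394500-55423183, minus strand).

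Thbs1, thrombospondin-1, which activates latent TGF-beta and restrains vessel growth, was high in stromal and myeloid cells alike. In the medium tumor it was at 989 CPM (879 to 1109) in fibroblast-like, 896 CPM (836 to 960) in macrophage-like, 509 CPM (444 to 581) in mesothelial-like, 319 CPM (251 to 400) in endothelial-like and 51.1 CPM (47.8 to 54.5) in carcinoma cells. The first 2 classes did not differ beyond counting error, with a ratio of macrophage-like to fibroblast-like cells of 0.906 (0.792 to 1.04). The order changed in the large tumor, with 2187 CPM (1985 to 2404) in macrophage-like, 748 CPM (557 to 984) in fibroblast-like and 250 CPM (223 to 279) in carcinoma cells. Thbs1 is on chromosome 2 (chr2:118111876-118127133, plus strand), with exons that overlap those of Gm29233 on the other strand.

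Bgn, biglycan, a small leucine-rich proteoglycan that binds collagen, was at 4636 CPM (4394 to 4889) in fibroblast-like, 792 CPM (710 to 881) in mesothelial-like and 18.4 CPM (16.5 to 20.5) in carcinoma cells of the medium tumor. In the large tumor it was at 616 CPM (444 to 833) in fibroblast-like cells, while 0 of 684 carcinoma cells had a UMI, which allows up to 2.36 CPM, so the level in fibroblast-like cells was at least 261-fold higher against that limit, and with the counting error of both classes the interval of the ratio begins at 203. Between the tumors, Bgn was the only 1 of the 10 members called different in fibroblast-like cells, at 0.133 (0.0954 to 0.181) of the medium-size level, against a background of 11.2% of 4595 genes called lower and 1.09% called higher. A count of 1 in 10 is close to the share of genes called lower, so it does not set the members apart from other genes. The fibroblast-like cells also differed in other markers, with 3 of 7 pericyte and smooth muscle markers, summing to 2018 CPM, in the medium tumor against 1 of 7, summing to 440.2 CPM, in the large tumor, and with fibroblast markers summing to 16395 and 15833 CPM. Cycling markers were 1 of 7 against 4 of 7. The part of these markers in the Bgn difference was not tested. Bgn is on chromosome X (chrX:73483602-73495933, plus strand).

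Postn, periostin, a matricellular protein that binds collagen and integrins, was the member with the largest ratio between fibroblast-like and carcinoma cells of the medium tumor, at 927 (456 to 2196). It was at 410 CPM (340 to 490) in fibroblast-like cells and 0.442 CPM (0.191 to 0.871) in carcinoma cells, from 8 UMIs in 8 of 2331 cells. In mesothelial-like cells it was at 2.34 CPM (0.0591 to 13), from 1 UMI. It was also uneven among the fibroblast-like cells, where 26 of 61 had a UMI and 6 cells held 50% or more of the UMIs. The level in the large tumor was 220 CPM (123 to 363) in fibroblast-like cells, and the 3 UMIs in carcinoma cells came from 1 cell. Postn is on chromosome 3 (chr3:54361109-54391037, plus strand).

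Mesothelial-like cells, the sheet that covers abdominal organs, were above carcinoma cells by the 4-fold rule for 6 of the 10 members, Lox, Loxl1, Plod2, Sparc, Thbs1 and Bgn, against a background of 2.13%, and 0 members were lower, where 0.356% of genes were. Summed markers of fibroblasts were at 12207 CPM in mesothelial-like and 16395 CPM in fibroblast-like cells, and their part in these differences was not tested. Fibroblast-like cells in turn were above mesothelial-like cells for 6 members, Lox, Loxl2, Tnc, Sparc, Bgn and Postn, against a background of 1.05%, and below them for 0 members, where 0.807% of genes were. The largest of these ratios were for Tnc, 59.2 (26.8 to 163), and Postn, for which 121 UMIs stood against 1 and the counting interval ran from 30.9 to 6988. Sparc, at 4.09 (3.79 to 4.42), was close to the rule. Tgm2 ran the other way, with mesothelial-like cells 3.24-fold (1.98 to 5.55) above fibroblast-like cells. Macrophage-like cells were above carcinoma cells for Tgm2 and Thbs1, 2 of the 10 members, against a background of 2.59% in the medium and 3.35% in the large tumor, and below them for 0, where 2.34% and 3.87% of genes were. The Tgm2 ratio was 5.39 (4.75 to 6.11) and 6.47 (4.30 to 9.73), and the Thbs1 ratio 17.6 (16.0 to 19.3) and 8.76 (7.56 to 10.2). By their intervals, though not by the rule, macrophage-like cells of the medium tumor were also below carcinoma cells for Tnc, at 1.08 CPM from 1 UMI against 13.7 CPM, and above them for Lox, at 5.41 CPM from 5 UMIs against 1.16 CPM. With each cell classed by its own markers the Tgm2 ratio in the medium tumor was 4.38 and was no longer called. Against fibroblast-like cells of that tumor, macrophage-like cells were higher in 1 member, Tgm2, with a ratio of 5.11 (3.26 to 8.49) and a background of 2.32%. They were lower in 8 members, all but Tgm2 and Thbs1, against a background of 3.57%. Endothelial-like cells of the medium tumor were above carcinoma cells for 3 members, Sparc, Thbs1 and Bgn, against a background of 1.81%, and below them for 0, where 0.196% of genes were.

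Set by where their UMIs were, carcinoma cells held over 50% of the UMIs of 2 of the 10 members in the medium tumor, Loxl2 and Tgm2, at 62.1% and 67.6% (65.3% to 69.8%), where 93% of 13747 genes had over 50% of their UMIs there. The count is 1, without Loxl2, when cluster 8 or the carcinoma cells with a collagen UMI are left out. Carcinoma cells of the large tumor held over 50% of the UMIs of none of the members, against 68.5% of genes, a count that was 3 (Plod2, Tgm2 and Thbs1) with the unnamed cluster of 276 cells counted as carcinoma. Fibroblast-like cells, 2.17% of the cells of the medium tumor with 1.45% of its UMIs, held 91.0% (84.8% to 95.3%) of the Postn UMIs, 65.6% (63.5% to 67.7%) of those of Bgn, 54.0% (48.0% to 59.8%) of those of Loxl1 and 52.9% (51.4% to 54.3%) of those of Sparc. The Thbs1 UMIs were split between carcinoma cells with 36.8% (34.9% to 38.7%) and macrophage-like cells with 32.9% (31.1% to 34.8%).

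**Figure D3:**
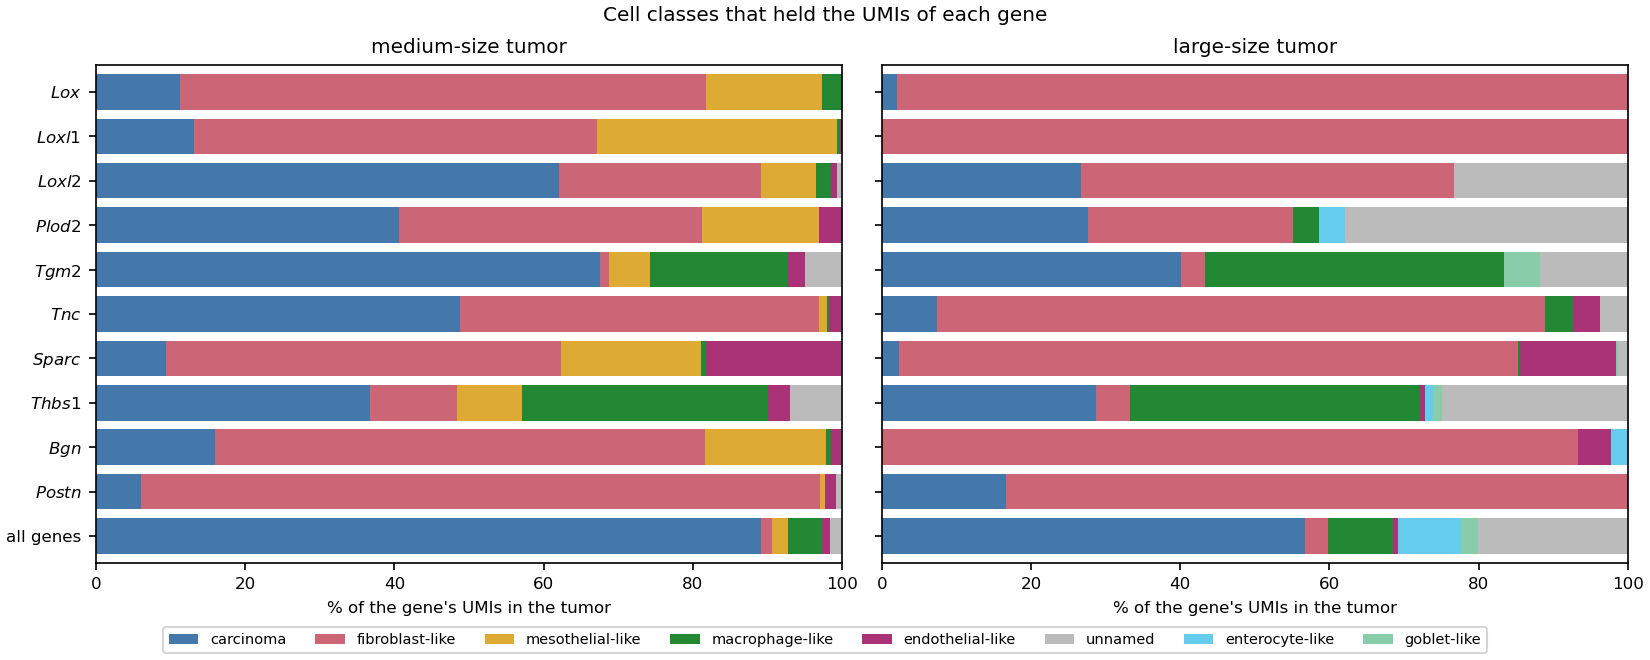
Bars give, for each gene and for all genes together, the percent of UMIs held by each class of cells in the medium tumor (left) and the large tumor (right). Carcinoma cells held 89.1% and 56.7% of all UMIs, but fibroblast-like cells, with 1.45% and 3.04%, held most of the Lox, Loxl1, Sparc, Bgn and Postn UMIs in both tumors.

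In droplets, RNA set free from broken cells gives UMIs in cells that do not express a gene. To set a scale for this, 5 genes of fibroblasts, Col1a1, Col1a2, Col3a1, Dcn and Lum, were read in the carcinoma cells of the medium tumor, where they were at 0.0937% to 0.776% of their fibroblast-like level, with a median of 0.223%. Postn at 0.108% (0.0455% to 0.219%), Lox at 0.262% (0.157% to 0.417%), Sparc at 0.291% (0.262% to 0.322%), Loxl1 at 0.397% (0.271% to 0.570%) and Bgn at 0.397% (0.351% to 0.448%) lay within that range. Single clusters stood above their own range for Loxl1 at 2.26% (1.36% to 3.57%) and Sparc at 0.798% (0.657% to 0.960%) in cluster 6, where the 5 genes were at 0.0729% to 0.553%, and for Bgn at 0.821% (0.632% to 1.05%) in cluster 6 and in cluster 7, given with that cluster. The part of free RNA in these levels was not tested. Plod2 at 1.63% (1.09% to 2.44%), Tnc at 1.65% (1.38% to 1.98%) and Loxl2 at 3.74% (3.03% to 4.63%) lay above it, with intervals that do not reach it. For Tnc and Plod2 this rests largely on cluster 6, described further on, which held 200 of the 248 Tnc UMIs and 27 of the 52 Plod2 UMIs and without which they were at 2.94 and 1.53 CPM. For Tgm2 and Thbs1 the scale was taken from macrophages, whose genes Lyz2, C1qa, C1qb, Tyrobp and Ctss were at 0.534% to 1.12% of their macrophage-like level in these carcinoma cells. Tgm2 was at 18.5% (16.4% to 21.0%) and Thbs1 at 5.70% (5.18% to 6.26%). In the large tumor the 5 macrophage genes were at 0.728% to 1.25% in carcinoma cells, with Tgm2 at 15.5% (10.3% to 23.2%) and Thbs1 at 11.4% (9.84% to 13.2%). The 5 fibroblast genes were at 0% to 0.187% of their fibroblast-like level in these carcinoma cells. By the levels and ratios given above, Loxl2 and Plod2 (8 UMIs each), Postn (3 UMIs) and Tnc (2 UMIs) lay above that range. Lox and Sparc lay within it, and Loxl1 and Bgn had 0 UMIs. These placements rest on few UMIs.

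Of the carcinoma clusters of the medium tumor, only cluster 6 had a member called higher than in the other carcinoma cells by the 4-fold rule with 10 CPM added. This was Tnc, where 0.167% of genes were called for this cluster and 1.47% for any of the 8 clusters. Cluster 6, with 234 cells, had 12 of 13 epithelial and 1 of 6 basal-like keratin markers. It was led by Krt17, a keratin, and Cldn4, a tight junction protein, with Pdgfb, a growth factor for fibroblasts and pericytes, also among its leading genes. Tnc was at 114 CPM (98.4 to 130) in it, at 0 to 7.11 CPM in the other 7 clusters, and the ratio was 38.6 (28.1 to 54.1). In cluster 6, 67 of 234 cells (28.6%) had a Tnc UMI and 11 cells held 50% or more of the UMIs. When each cell was thinned to 2500 UMIs the share was 18.4%, against 0% of macrophage-like cells (0.418% before thinning), at median depths of 5361 and 3511 UMIs. The level was 13.7% (11.3% to 16.6%) of that in fibroblast-like cells, where the 5 fibroblast genes were at 0.0729% to 0.553%. Without the carcinoma cells that had a Col1a1, Col1a2 or Col3a1 UMI, Tnc was at 116 CPM in cluster 6 and the ratio was 55.8 (37.5 to 85.8), and without the 5% of cells with the highest doublet scores it was 47.9 (33.7 to 69.8).

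Other members were also higher in cluster 6 than in the other carcinoma cells but stayed under the rule, since their levels were low or the ratio was under 4. Plod2 was at 15.3 CPM (10.1 to 22.3) against 1.53 CPM, a ratio of 10.0 (5.6 to 18), and stood at 8.71% (5.26% to 14.1%) of its fibroblast-like level. Loxl1 was at 11.9 CPM against 1.04 CPM, a ratio of 11.5 (5.76 to 23.1) from 21 and 17 UMIs. Thbs1 had a ratio of 3.40 (2.93 to 3.94), Sparc of 3.37 (2.70 to 4.18) and Bgn of 2.34 (1.76 to 3.06). Loxl2 was lower in this cluster, at 7.38 CPM against 17.4 CPM, a ratio of 0.423 (0.223 to 0.735), and Tgm2 did not differ beyond counting error, at 0.95 (0.772 to 1.16). At 2500 UMIs per cell, 13 of the 234 cells (5.56%) held 3 or more members, where 24 of all 2331 carcinoma cells (1.03%) did.

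**Figure D4:**
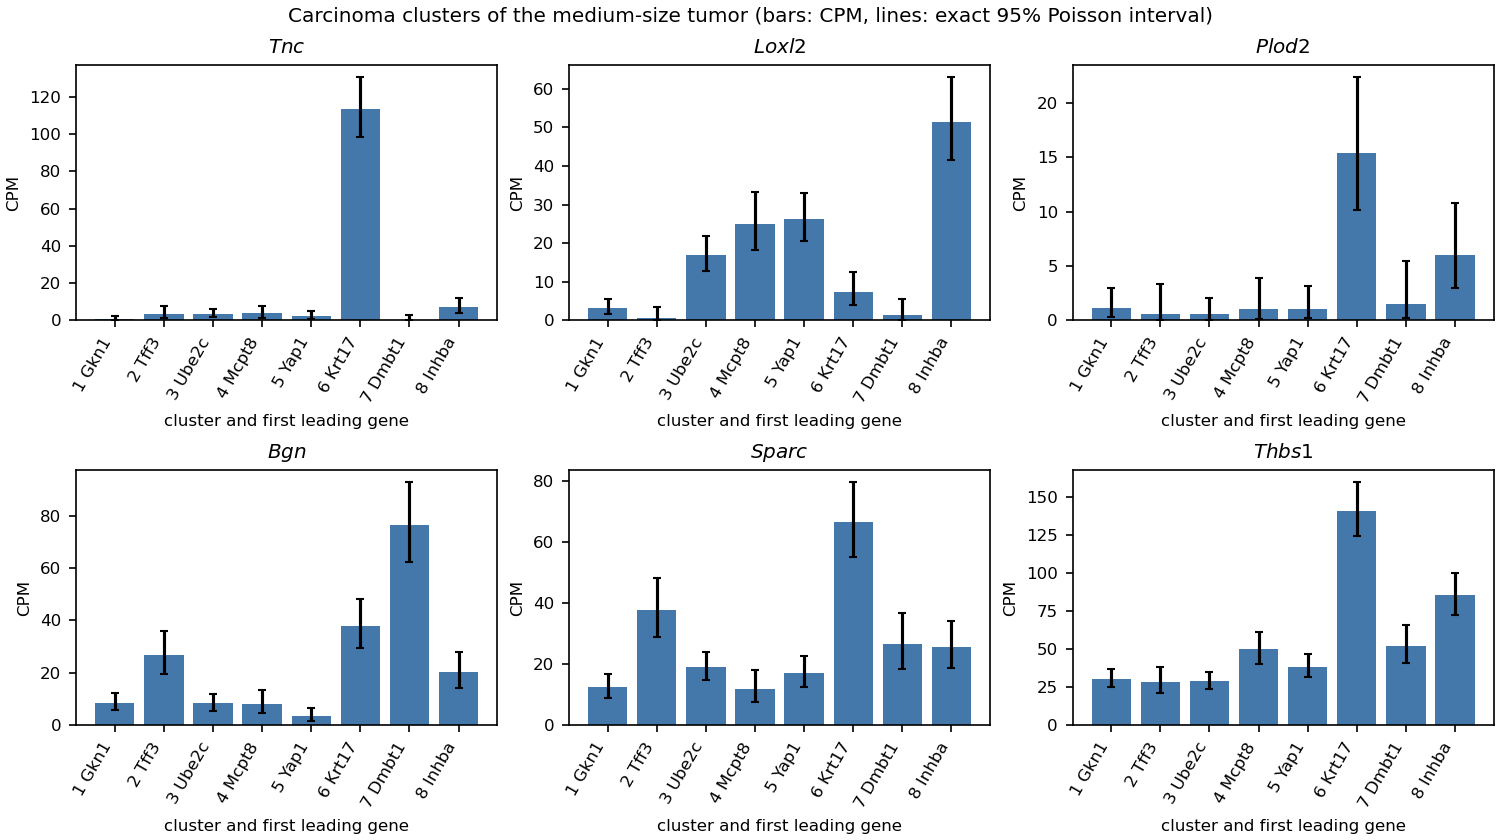
Bars give CPM of 6 members in the 8 carcinoma clusters of the medium tumor, each named by its number and first leading gene, with exact 95% Poisson intervals. Tnc reaches 114 CPM in cluster 6 (Krt17), Loxl2 to 51.4 CPM in cluster 8 (Inhba) and Bgn to 76.4 CPM in cluster 7 (Dmbt1), so that different members peak in different clusters.

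Loxl2 followed a different order of clusters. It was highest at 51.4 CPM (41.5 to 62.9) in cluster 8, which was led by Inhba, a subunit of activin, and Bmp2, a bone morphogenetic protein. This cluster had 6 of 8 mesenchymal markers, a list that itself includes Inhba and Bmp2. Clusters 3, 4 and 5 had 3, 4 and 5 of the 8, and the other carcinoma clusters 0. Fibroblast-like cells had 5 and macrophage-like cluster 9 had 4. Loxl2 was at 16.9 to 26.3 CPM in clusters 3, 4 and 5, and at 0.608 to 7.38 CPM in clusters 1, 2, 6 and 7. The ratio of cluster 8 to the other carcinoma cells was 4.10 (3.18 to 5.26), and with 10 CPM added it was under 4. In cluster 8 Loxl2 was at 11.7% (8.86% to 15.3%) of its fibroblast-like level, where the 5 fibroblast genes were at 0.0562% to 0.769%, and 69 of 223 cells (30.9%, and 13% after thinning) had a UMI. Bgn was highest in cluster 7, led by the secreted defense proteins Dmbt1 and Lcn2, at 76.4 CPM (62.2 to 92.8) against 13.8 CPM, a ratio of 5.52 (4.33 to 7.01) that was under 4 with 10 CPM added. This was 1.65% (1.33% to 2.02%) of its fibroblast-like level, where the 5 fibroblast genes were at 0.0660% to 0.368%, and without carcinoma cells with a collagen UMI the ratio was 7.07 (5.42 to 9.19). Tgm2 was the most even member, at 50.5 to 78.5 CPM in all 8 clusters. Lox and Postn were at or under 2.73 and 1.51 CPM in every carcinoma cluster.

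**Figure D5:**
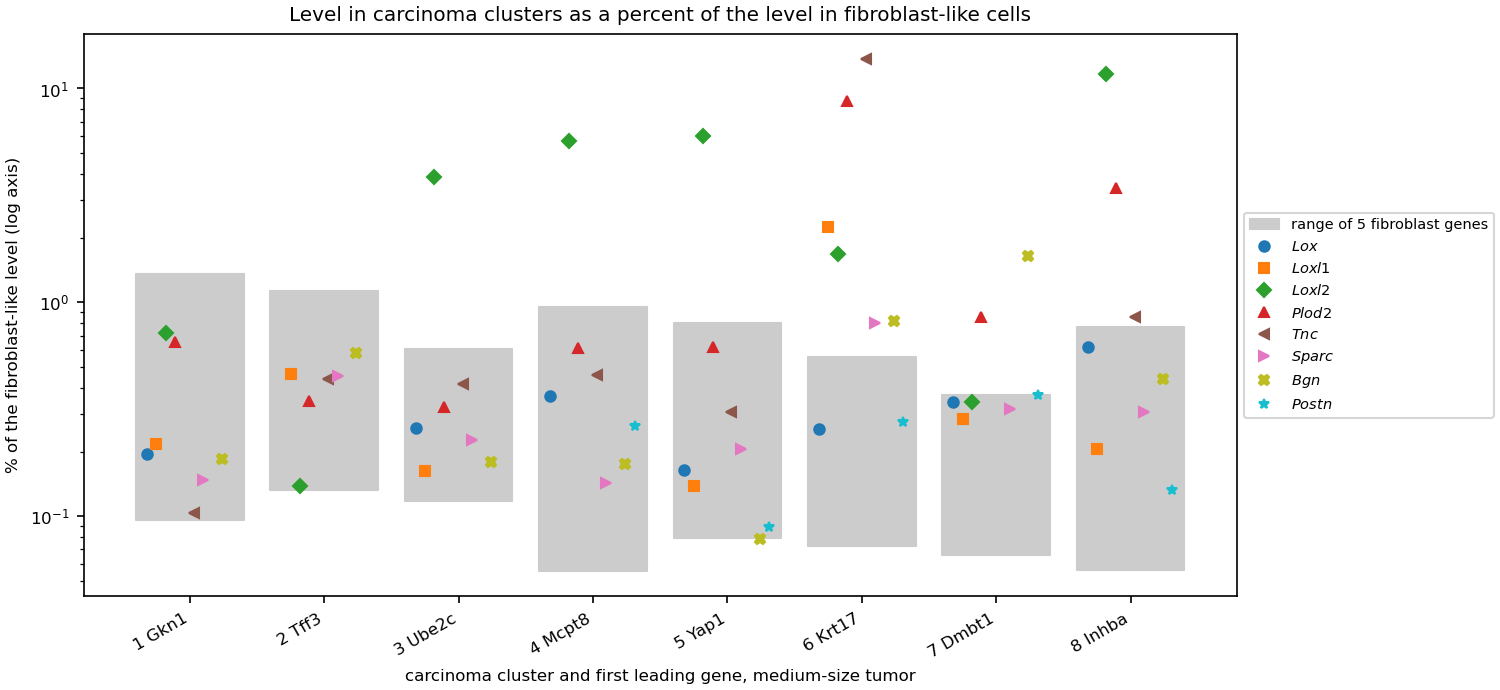
Points give the level of 8 members in each carcinoma cluster of the medium tumor as a percent of the level in fibroblast-like cells, on a log axis, and grey bars the range of Col1a1, Col1a2, Col3a1, Dcn and Lum in the same cluster; members at 0 UMIs are not drawn, and Tgm2 and Thbs1 are left out. Tnc (13.7%) and Plod2 (8.71%) in cluster 6 and Loxl2 (11.7%) in cluster 8 lie far above the grey bars, while Lox and Postn lie within them or, for Postn in cluster 7 at 0.369%, at their upper edge.

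Summed fibroblast markers were at 22.2 to 47.5 CPM in the 8 carcinoma clusters, against 16395 CPM in fibroblast-like cells, with cluster 6 at 30.1, cluster 7 at 24.2 and cluster 8 at 42.1 CPM. Summed macrophage markers were at 214 to 521 CPM in these clusters, with the highest value in cluster 8. Depth also differed between clusters, with medians from 4379 UMIs per cell in cluster 2 to 9742 in cluster 3, and of 5361 in cluster 6, 5255 in cluster 7 and 6484 in cluster 8. With every cell thinned to 2500 UMIs, the ratio to the other carcinoma cells was 40.6 (23.0 to 76.5) for Tnc in cluster 6, 5.78 (3.63 to 9.07) for Loxl2 in cluster 8 and 4.52 (3.04 to 6.65) for Bgn in cluster 7. The part of the macrophage markers in these differences was not tested.

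The tumors were compared only side by side, since each size is 1 mouse, and tumor size, mouse, library and depth cannot be told apart. In carcinoma cells 1 of the 10 members was called, Thbs1, which was higher in the large tumor, against a background of 0.188% of 13298 genes. It was at 250 CPM against 51.1 CPM, a ratio of 4.89 (4.29 to 5.56), or 4.68 without cluster 2 of the medium tumor. By cluster it was at 28.6 to 141 CPM in the 8 carcinoma clusters of the medium tumor and at 394, 220, 231, 104 and 881 CPM in clusters 3, 5, 6, 7 and 10 of the large tumor, so the ranges overlap. The value of 881 CPM rests on 17 UMIs in 18 cells of cluster 10, which was led by Upk3a, a urothelial plaque protein, and that of 394 CPM comes from cluster 3, whose 223 cells had a median of 810 UMIs and Malat1, a nuclear RNA, and ribosomal protein genes among their leading genes. The call rests on cluster 3, since without it the ratio was 4.31 and 0 members were called, and without clusters 3 and 10 it was 4.07. Without cluster 10 alone it was 4.70 and still called. No member was called lower, where 0.639% of genes were. The ratio of Thbs1 between the tumors was 2.44 (2.17 to 2.74) in macrophage-like cells, among whose 5 tested members 0 were called in either direction, against 0.31% of genes higher and 1.14% lower in the large tumor. In fibroblast-like cells it was 0.757 (0.551 to 1.02). Bgn, Tnc, Sparc, Loxl2 and Tgm2 were lower in carcinoma cells of the large tumor by their intervals, though not by the 4-fold rule. Bgn was at 0 against 18.4 CPM, where at most 0.159 of the medium-size level is allowed by the interval, and Tnc at 0.115 (0.0138 to 0.420). The Tnc level of the medium tumor rests largely on its cluster 6, without which its carcinoma cells were at 2.94 CPM. Carcinoma cells of the large tumor had 2 Tnc UMIs. No member was called higher in a carcinoma cluster of the large tumor than in its other carcinoma cells, where 1.59% of genes were. Tgm2 passed the rule as lower in cluster 10, at 0 UMIs against 40.8 CPM, but the interval of its ratio, 0 to 4.86, includes 1. The share of genes called lower in a cluster was not counted. Single ratios above 4, for Loxl2 and Sparc in cluster 5 and Tnc in cluster 3, came from 8 UMIs or fewer in that cluster and had intervals that include 1. So did those of Postn in cluster 5 and Lox in cluster 6, with 3 and 1 UMIs against 0.

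Single fibroblast-like cells held more members than cells of other classes. With every cell of the medium tumor thinned to 2500 UMIs, fibroblast-like cells held a median of 6 of the 10 members (range 3 to 8), mesothelial-like cells 3, endothelial-like cells 2, macrophage-like cells 1 and carcinoma cells 0. All 61 fibroblast-like cells and 75.0% of mesothelial-like cells had 3 or more. In the large tumor, at 500 UMIs, fibroblast-like cells held a median of 2 members and carcinoma cells 0, with 3 or more members in 19 of 50 fibroblast-like cells (38.0%) and none in 4. Sparc and Bgn were in all 61 fibroblast-like cells of the medium tumor after thinning, and Lox was in 31 and Postn in 21 of them. Postn was in 6 of 31 cells with Lox (19.4%) and in 50.0% of the 30 cells without it, while in the large tumor, at 500 UMIs, it was in 3 of 14 cells with Lox (21.4%) and in 0 of the 36 without it. Many other pairs of members were read in these cells, and this contrast rests on few cells and was not tested.

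As a description over the 14 clusters of the medium tumor, which share 1 library, Pearson's r of log2(CPM + 10) was highest between Lox and Loxl1 at 0.961 and lowest between Tgm2 and Tnc at -0.231. Among 7838 genes with at least 200 UMIs, with members left out of the ranking, those most like Lox were Itm2a, Col5a2 and Col1a1 (r of 0.992, 0.991 and 0.986). Those most like Postn were Tagln, Mmp2 and Sfrp1 (0.937, 0.936 and 0.932). Fbn1, Col1a2 and Mfap5, matrix fibre genes, were most like Loxl1 (0.985, 0.984 and 0.981). Loxl2 had Timp1, Fkbp7 and Vcan (0.945, 0.944 and 0.939) as its nearest genes and Plod2 had Fstl1, Selm and Meg3 (0.964, 0.954 and 0.954). The nearest genes of Bgn were Mdk, Serping1 and Rcn3 (0.960, 0.959 and 0.957) and those of Sparc were Heg1, Fstl1 and Serpina3n (0.962, 0.952 and 0.943). Tnc had Col8a1, Serpine2 and Pofut2 (0.960, 0.909 and 0.879). The 2 members spread over myeloid cells stood apart, since the genes most like Tgm2 were Kctd12 and the antigen presentation genes H2-DMa and H2-Aa (0.959, 0.958 and 0.949), and those most like Thbs1 were Ccl2, Nfkb1 and Ccl7 (0.976, 0.966 and 0.937), of which Ccl2 and Ccl7 are chemokines that draw monocytes.

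Other genes of the same processes were read from lists that hold no member. Of 14 tested genes of crosslinking and collagen processing, 4 were at least 4-fold higher in fibroblast-like than in carcinoma cells of the medium tumor and 0 lower, where 2.74% of all genes were higher and 1.54% lower, with a median log2 ratio of 1.38 against -0.10 over all genes. These were the lysyl oxidase Loxl3 at 40.6 against 0.332 CPM, the lysyl hydroxylase Plod1 at 61.0 against 6.91, the collagen chaperone Serpinh1 at 989 against 58.9, and Bmp1, the procollagen C-proteinase, at 295 against 43.7. Of 16 other matricellular genes, 7 were higher, Thbs2, Sparcl1, Fstl1, Smoc2, Wisp1, Wisp2 and Tgfbi, and 1 was lower, Spp1, osteopontin, at 2184 against 10459 CPM, with a median log2 ratio of 1.05. The largest ratios were for Thbs2 at 481 against 0.442 CPM and Sparcl1 at 373 against 1.22 CPM. Of 6 other matrix proteoglycans, Fmod, Prelp, Vcan and Hspg2 were higher and 0 were lower, with a median of 3.02. Of 8 receptors, 1 was higher, Itga9, an integrin subunit that binds tenascin-C, at 33.9 against 0.387 CPM, and 0 were lower, with a median of 0.66. Between macrophage-like and carcinoma cells of the same tumor, where 2.59% of all genes were higher and 2.34% lower, the crosslinking list had 1 gene higher and 1 lower, the matricellular list 2 higher and 2 lower, the receptors 1 higher and 0 lower, and the proteoglycans 0 in either direction. The genes higher in macrophage-like cells were F13a1, the transglutaminase of clots, at 187 against 1.33 CPM, Nov at 219.8 against 1.93 CPM, Tgfbi at 343 against 4.48 CPM, and Cd36, a receptor of thrombospondin-1, at 52.0 against 0.718 CPM. Those lower were Pcolce, an enhancer of procollagen cleavage, at 8.66 against 142 CPM, and Ctgf and Cyr61, matricellular proteins of the same family, at 7.58 against 209.8 CPM and 22.7 against 230.2 CPM. In the large tumor fewer of these genes could be tested. Between its fibroblast-like and carcinoma cells 1 of 10 crosslinking genes (Serpinh1), 3 of 11 matricellular genes (Thbs2, Sparcl1 and Fstl1), 1 of 2 proteoglycans (Vcan) and 0 of 6 receptors were higher, and Spp1 was lower. Of all genes tested there, 1.5% were higher and 4.37% lower. Its macrophage-like cells were above its carcinoma cells for F13a1, Tgfbi, Ecm1 and Vcan and below them for Serpinh1, Pcolce, Ctgf and Cyr61, where 3.35% of all genes tested were higher and 3.87% lower. Nov had 0 UMIs and Cd36 had 9 UMIs in these macrophage-like cells, and neither was called.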

How the data were processed

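Single-cell RNA-seq was measured in 2 tumors. Per the labels the authors used Cell Ranger, and the deposited values are whole-number counts of UMIs per gene and cell without normalization. The submitters' processing notes name the build mm10. The version of Cell Ranger and the annotation are not given in the sources used here.

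The 10 members and all gene lists were chosen with earlier results of these data known. Each tumor was clustered with Seurat 5.3.0 in R 4.3.3 after removal of the 10 member rows, with log normalization to 10000, 2000 variable genes, 10 principal components and a resolution of 0.8. A marker counted when it was in at least 10% of a cluster's cells at 25% or more of its highest level over clusters. A cluster took the class with the largest share of its markers counted. At least 3 markers were needed, and no other class could reach 60% of its markers. A further rule unnamed clusters of low median depth without a marker of their class among their leading genes, and it changed no name in the clustering used here. Gut classes were nested within epithelium. These limits were chosen with the marker values in view. No cell was removed. Scrublet, run in scanpy 1.11.5, called 0 cells of the medium and 9 cells (0.587%) of the large tumor as doublets, and none was left out of the values given. Counts were summed per class in Python 3.11.15 with numpy 2.4.6, scipy 1.17.1 and pandas 2.3.3. Named genes are the members, for each member the 3 most correlated genes with at least 200 UMIs, the listed genes past the 4-fold rule between fibroblast-like and carcinoma cells of the medium tumor with up to 2 largest per list elsewhere, and genes that lead clusters. The ratio and its interval were tested on simulated data. The tables held 20301669 and 2239012 UMIs, and 39 symbols that name more than 1 row were kept apart. A count of 0 allows 0.148 and 1.34 CPM over all cells of the tumors. Positions are from GENCODE M21 (GRCm38). The 3′ reads were counted by the authors, and whether strand was used is not given in the sources used here. Alternatives were other clusterings, cell classes, depths, doublet limits and call rules. The full genotype of the mice is not reported here.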

Additional observations from a re-analysis of the deposited data

Results flagged for a closer look

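Members were also found in the unnamed clusters, at levels over the limit that 3 counts allow (9.24 CPM in the medium and 6.67 CPM in the large tumor). These clusters belong to none of the classes compared above. That of the medium tumor entered the correlations over clusters, and that of the large tumor was added to carcinoma cells as an alternative. In the cluster of 63 cells of the medium tumor with epithelial and macrophage markers together, Tgm2 was at 265 CPM (212 to 327), Thbs1 at 542 CPM (465 to 628), Sparc at 15.4 CPM (5 to 35.9) and Bgn at 12.3 CPM (3.36 to 31.5). Tgm2 and Thbs1 were at 76.4% (59.5% to 97.2%) and 60.4% (51.1% to 71.2%) of their macrophage-like level there, where 5 macrophage genes were at 25% to 34.2%. In the cluster of 276 cells of the large tumor, led by Ggct and with 5 of 8 mesenchymal markers, Thbs1 was at 612 CPM (542 to 688), Tgm2 at 33.4 CPM (18.7 to 55.0), Plod2 at 24.5 CPM (12.2 to 43.8), Loxl2 at 15.6 CPM (6.26 to 32.1) and Sparc at 13.3 CPM (4.9 to 29). The ratio of this cluster to the carcinoma cells of the same tumor was 2.45 (2.08 to 2.89) for Thbs1 and 3.88 (1.42 to 11.1) for Plod2, and Bgn, Lox, Loxl1 and Postn had 0 UMIs in it.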

How the results depend on the processing

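Of 129 counts of members under other settings 110 stayed within 1.5 times the value reported and 19 moved. Of 765 ratios of single members 705 stayed within their interval and 60 moved, and 0 of those called changed direction, while 16 ratios that were not called, of 4 members, crossed 1 (Tgm2, Tnc, Postn and Plod2). With each cell classed by its own markers, macrophage-like cells of the medium tumor were 4-fold above carcinoma cells for 1 member (Tgm2 was lost), and 1 member had over 50% of its UMIs in carcinoma cells of the large tumor. With cells of the large tumor thinned to 500 UMIs, 4 members differed between fibroblast-like and carcinoma cells (fewer UMIs were left, and Tgm2 in fibroblast-like cells went from a ratio of 1.46 to 0 UMIs). With 1 CPM added in place of 10, 3 members differed between carcinoma cells of the tumors (Tnc and Bgn joined) and 4 were called in 1 carcinoma cluster of the medium tumor (Bgn, Loxl1 and Plod2 joined). That last count was 2 (Bgn joined) with 20 components and, as an alternative chosen after seeing the data, without carcinoma cells with a collagen UMI. Without cluster 3 of the large tumor, or without its clusters 3 and 10, both chosen after seeing the data, 0 members differed between carcinoma cells of the tumors (Thbs1 was lost), and without cluster 3 alone 1 member, Thbs1, was called in 1 carcinoma cluster of the large tumor. Members with over 50% of their UMIs in carcinoma cells of the medium tumor were 1 (Loxl2 was lost) at a resolution of 1.2, after thinning, without cluster 8 and without those collagen cells. The count for the large tumor was 3 at a resolution of 0.4, with 20 components and with its unnamed cluster counted as carcinoma, 1 at a resolution of 1.2 and 2 with the members kept in the clustering. Apart from thinning and the added CPM, the cause was not tested. Fibroblast-like and mesothelial-like comparisons of the medium tumor were not run at a resolution of 0.4 or with 20 components, since no cluster took these names. The shallower table of the large tumor limits every value near 0. No paired analysis was possible because the technical replicates of each tumor are pooled in 1 table and no test was run.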
